A study of Mus musculus with 18 samples.

Results

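The 7 genes described here encode the receptors and ligands of the vascular endothelial growth factor (VEGF) family: the receptors Kdr, Flt1 and Flt4 and the ligands Vegfa, Vegfb, Vegfc and Pgf. They were picked by name, with earlier results of these data known. All 7 were found by Ensembl identifier among 55401 genes of the endothelial table and by symbol among 22612 lines of the EO771 table. The study sequenced RNA of endothelial cells sorted from wild-type female C57BL/6 mice and of EO771, a breast cancer line of the mouse, grown in culture. It comprised 18 libraries in 6 groups of 3. Blood endothelial cells (BECs) were CD45-, CD31high and PNAd-, and came from mammary fat pads of mice without tumours (normal BECs) or from EO771 tumours (tumour BECs). High endothelial cells (HECs), which line the venules through which lymphocytes enter lymph nodes, were CD31high and PNAd+, and came from inguinal lymph nodes of mice without tumours (normal HECs) or from nodes labelled as lymph node metastases (tumour HECs). HECs and BECs therefore differed in tissue as well as in cell type, and the tissues were digested with different enzymes, so these cannot be told apart. Normal and tumour BECs also differed in tissue and in the enzymes used, whereas both HEC groups came from lymph nodes. Differences with tumour in BECs thus cannot be told apart from tissue and digestion, nor can the comparison of changes between HECs and BECs. EO771 cells were given 12-HETE, a lipid product of the lipoxygenase ALOX12, or its vehicle, DMSO in saline. The study describes the libraries of a group as independent experiments, and the labels do not name the mice or cultures behind each. In such bulk libraries, fewer cells of a type and less RNA per cell cannot be told apart.

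VEGF-A is the main growth and permeability factor of blood vessels. It acts chiefly through the receptor tyrosine kinase VEGFR2, encoded by Kdr, whereas VEGFR1, encoded by Flt1, binds VEGF-A tightly, signals weakly and is also made as a soluble decoy. VEGF-B and placental growth factor (encoded by Pgf) bind VEGFR1 but not VEGFR2, and VEGF-C binds VEGFR3, the product of Flt4, which is best known from lymphatic endothelium and is also found on high endothelial and tumour vessels.

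On GRCm38, Kdr (ENSMUSG00000062960) lies at chr5:75932827-75978458 on the minus strand, Flt1 (ENSMUSG00000029648) at chr5:147561604-147726011 on the minus strand, and Flt4 (ENSMUSG00000020357) at chr11:49609263-49652739 on the plus strand. Vegfa (ENSMUSG00000023951) lies at chr17:46016993-46032369 on the minus strand, Vegfb (ENSMUSG00000024962) at chr19:6982473-6987651 on the minus strand, Vegfc (ENSMUSG00000031520) at chr8:54077606-54187096 on the plus strand, and Pgf (ENSMUSG00000004791) at chr12:85166635-85177790 on the minus strand. No member shared an exon with another annotated gene. The counts are per gene, so the soluble form of Flt1 and the splice forms of Vegfa, of which 13 transcripts are annotated, were not separated.

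Of the 5 members called lower in tumour BECs than in normal BECs, Vegfc and Pgf are not shown here. The sequences just before the start sites of the other 3, Kdr, Flt1 and Vegfa, are shown. They are the 250 bases before the RefSeq start on GRCm38.p6, read 5′ to 3′ on the gene's strand, at chr5:75978456-75978705, chr5:147726012-147726261 and chr17:46032378-46032627, all on the minus strand. Capitals mark matches on either strand to GGGCGG (the SP1 box), TATAAA (the TATA box) and the core of the interferon-stimulated response element.
Kdr: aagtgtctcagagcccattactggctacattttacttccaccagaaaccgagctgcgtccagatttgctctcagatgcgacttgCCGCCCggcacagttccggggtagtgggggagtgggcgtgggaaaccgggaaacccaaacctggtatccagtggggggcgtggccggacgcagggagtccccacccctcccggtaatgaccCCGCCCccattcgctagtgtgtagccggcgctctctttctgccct
Flt1: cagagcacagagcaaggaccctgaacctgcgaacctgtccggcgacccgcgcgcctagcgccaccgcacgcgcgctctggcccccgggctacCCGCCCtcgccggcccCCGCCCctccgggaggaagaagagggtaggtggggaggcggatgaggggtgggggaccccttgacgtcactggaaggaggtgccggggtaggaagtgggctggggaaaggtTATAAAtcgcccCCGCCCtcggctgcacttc
Vegfa: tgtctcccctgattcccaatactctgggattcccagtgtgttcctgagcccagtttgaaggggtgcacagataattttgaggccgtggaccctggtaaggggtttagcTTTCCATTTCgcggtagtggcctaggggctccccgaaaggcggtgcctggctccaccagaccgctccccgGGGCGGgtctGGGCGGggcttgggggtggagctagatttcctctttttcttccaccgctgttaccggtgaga

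The Kdr window held 2 SP1 boxes and the Vegfa window 2, and the Flt1 window held 3. The windows of the other 4 members held 2 to 4 each, so the letters GGGCGG were found before the first listed start of all 7 genes, against 32.94% of 27025 such windows of the genome. The window of Flt1 was the only one of a member with TATAAA, 31 bases before the start (12.97% of all windows), and that of Vegfa the only one with the interferon response core (3.04% of all windows). ACGTG, the core of the hypoxia response element, was in 16.57% of all windows. Among the members it was found only before the second RefSeq start of Vegfa. GC content was 59.2% to 76.4% in the members' windows against a median of 52.0%. CCGGAAG (the ETS motif, 7.05% of all windows) and TGACTCA (the AP-1 motif, 4.43%) were in no member's window. These are matches of letters, not sites, and shared GC content bears on them.

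Endothelial libraries held 56.4 M to 79.4 M deposited units, which moved in steps of about 3.79, or 14.8 M to 21.0 M steps, and EO771 libraries held 17.3 M to 18.6 M counts. All 10 endothelial markers were found in every endothelial group, but Cldn5 was at 232 to 280 CPM (counts scaled to a common library total) in normal BECs and at 2.01 or less in the other 3 groups. Of the 6 markers of high endothelium, Glycam1 was at 573 to 592 CPM in normal HECs, at 1080 to 1100 in tumour HECs and at 0 in BECs. Madcam1 and Ackr1 were at 0.394 CPM or less throughout. Enpp2 was low in all groups, at 0.948 to 1.4 CPM in normal BECs and 0.725 to 3.82 in tumour BECs. In normal HECs it was at 2.3, 0.119 and 4.0 CPM in replicates 1, 2 and 3, and in tumour HECs at 2.13 to 3.8. Chst4, a sulfotransferase that makes the PNAd epitope, was at 0.0596 CPM in normal HEC replicate 2 against 291 and 297 in the other 2, and Fut7, a fucosyltransferase of the same pathway, was at 221 CPM in tumour HEC replicate 3 against 1020 and 1010. Without either library, each member kept its call in the comparisons of HECs with BECs. Lymphatic markers (6 genes) summed to 271 to 290 CPM in normal BECs, 75.9 to 88.0 in tumour BECs, 177 to 235 in normal HECs and 234 to 244 in tumour HECs. Lyve1 made up most of these sums, whereas the lymphatic regulator Prox1, Reln and Mmrn1 were at 1.11 CPM or less throughout. Pdpn was at 59.8 to 68.2 CPM in normal BECs, 24.7 to 32.8 in tumour BECs and 4.0 or less in HECs, and Tbx1 at 11.2 to 13.8, 2.21 to 3.35 and 0. Fibroblast and pericyte markers (8 genes, 2 of them at or under 3 steps in either HEC group) summed to 830 to 840 CPM in normal BECs, 83.5 to 115 in tumour BECs, 33.3 to 34.3 in normal HECs and 18.4 to 20.2 in tumour HECs. Myeloid markers (6 genes, of which Ptprc reached 12.8 CPM at most) summed to 108 to 128, 1460 to 1960, 483 to 509 and 355 to 374 CPM in the same order, and in HECs Cd68 gave nearly all of the sum (477 to 503 and 350 to 370 CPM). The other lists were low: adipocyte, T cell and B cell markers summed to 3.73 CPM or less, platelet markers to 12.2 to 31.0 CPM and epithelial and tumour cell markers to 3.61 to 84.3 CPM, with the highest in tumour BECs.

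Receptors were compared first, to ask which VEGF receptor transcripts HECs and BECs held. Receptor protein and signalling were not measured in these libraries. Kdr was the receptor that differed most. It was highest in normal BECs, and its level was 4.59-fold lower in normal HECs and 5.04-fold lower in tumour BECs. Flt1 was also highest in normal BECs, whereas Flt4 stayed within 1.54-fold across the 4 groups.

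Kdr was at 26024, 22554 and 24696 normalised counts in the 3 normal BEC libraries and at 5138, 4903 and 4486 in tumour BECs. It was at 5174, 5594 and 5207 in normal HECs and at 8810, 9271 and 8835 in tumour HECs. Every normal BEC library was above every other library, and tumour HECs lay between normal BECs and the other pair of groups. The lowest groups, tumour BECs and normal HECs, averaged 4843 ± 330.0 and 5325 ± 234 normalised counts (SD, n = 3), neighbours that were not tested against each other. The log2 difference between normal HECs and normal BECs was -2.20 ± 0.08 (SE; DESeq2 adjusted p = 2.2e-186), and that between tumour BECs and normal BECs was -2.34 ± 0.08 (DESeq2 adjusted p = 4.54e-210).

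With tumour, Kdr differed in opposite directions in the 2 cell types. In HECs it was 1.69-fold higher in the tumour group (log2 0.75 ± 0.08, DESeq2 adjusted p = 8.94e-22), below the 2-fold limit for a call. The difference between this change and that in BECs was 3.09 ± 0.11 on the log2 scale (DESeq2 adjusted p = 1.59e-182). Tumour HECs held 1.85-fold more Kdr than tumour BECs (log2 0.89 ± 0.08, DESeq2 adjusted p = 8.44e-31), again under the limit, whereas normal HECs held less than normal BECs.

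Flt1 was at 7616, 6740 and 6986 normalised counts in normal BECs and at 3471, 3236 and 3204 in tumour BECs. In normal HECs it was at 2556, 2559 and 2702, and in tumour HECs at 1997, 2305 and 2473. The order from normal BECs through tumour BECs and normal HECs to tumour HECs had no overlap between neighbours. Flt1 was 2.73-fold lower in normal HECs than in normal BECs (log2 -1.45 ± 0.09, DESeq2 adjusted p = 1.2e-57) and 2.15-fold lower in tumour BECs than in normal BECs (log2 -1.11 ± 0.09, DESeq2 adjusted p = 3.58e-34). Tested against a 2-fold change instead of no change, the difference in BECs was not called (DESeq2 adjusted p = 1.0). The other differences of Flt1 were under 2-fold: -0.55 ± 0.09 between tumour HECs and tumour BECs (DESeq2 adjusted p = 6.94e-09) and -0.21 ± 0.09 between tumour and normal HECs (DESeq2 adjusted p = 0.0623). Its change with tumour in HECs and in BECs differed by 0.90 ± 0.13 (DESeq2 adjusted p = 1.26e-11), also short of a call.

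Flt4 was at 5675, 5743 and 5829 normalised counts in normal BECs and at 8648, 9263 and 8657 in tumour BECs. Normal HECs had 7038, 7147 and 7264, and tumour HECs 7833, 7496 and 7145. Unlike Kdr and Flt1, it was lowest in normal BECs and highest in tumour BECs, and the HEC groups overlapped. No difference of Flt4 reached 2-fold. It was 1.54-fold higher in tumour than in normal BECs (log2 0.62 ± 0.05, DESeq2 adjusted p = 3.59e-32), and the difference between tumour and normal HECs was 0.07 ± 0.05 (DESeq2 adjusted p = 0.336). The change in HECs minus that in BECs was -0.56 ± 0.07 (DESeq2 adjusted p = 3.04e-13).

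**Figure D1:**
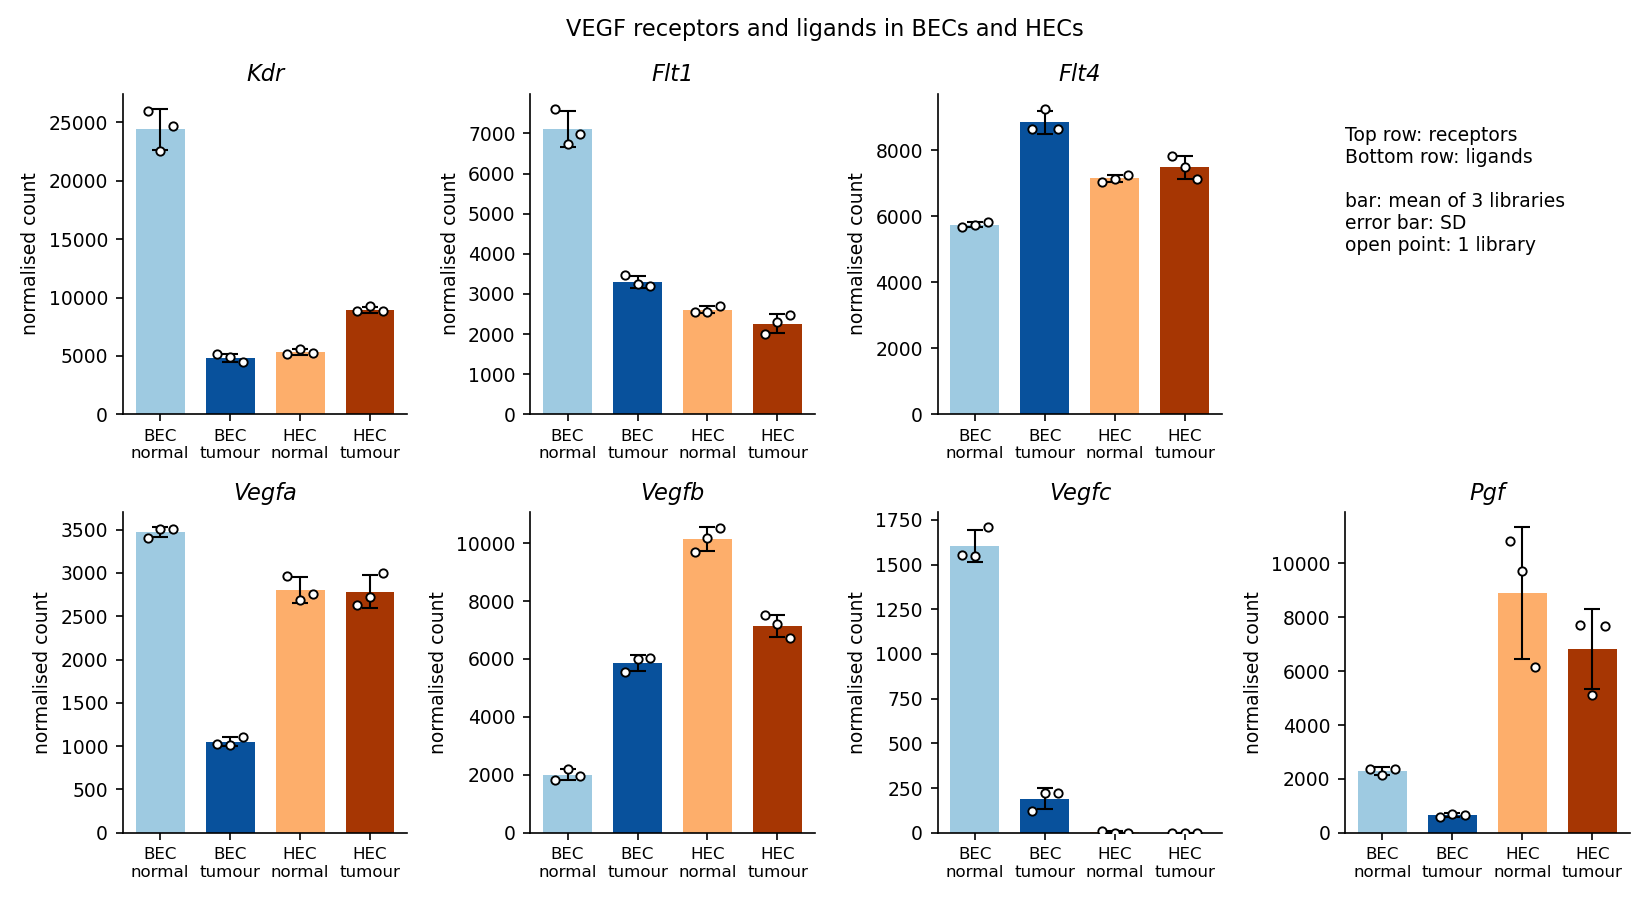
Normalised counts (linear axes, each from 0) of the 3 receptors and 4 ligands in the 4 endothelial groups; bars are means of 3 libraries, error bars SDs and open points single libraries. Kdr and Flt1 are highest in normal BECs, Vegfb and Pgf in normal HECs, and Vegfc is at or near 0 in both HEC groups.

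Compared per length, in TPM, the usual unit of transcript level scaled to gene length and library total, the leading receptor changed with the group. In normal BECs, Kdr had a mean of 101.7 ± 9.79 TPM (SD, n = 3), ahead of Flt4 at 26.2 ± 0.53 and Flt1 at 19.8 ± 1.78. In tumour BECs, Flt4 led with 43.0 ± 2.19 TPM, before Kdr at 21.4 ± 1.85 and Flt1 at 9.77 ± 0.58. Flt4 also led in normal HECs, with 31.9 ± 0.48 TPM against 21.7 ± 0.79 for Kdr and 7.09 ± 0.24 for Flt1. In tumour HECs, Kdr was at 40.0 ± 1.10 TPM and Flt4 at 36.6 ± 1.36, with Flt1 at 6.73 ± 0.78. Kdr thus made up 68.8% ± 1.07 of the summed receptor TPM in normal BECs, 28.9% in tumour BECs, 35.7% in normal HECs and 48.0% in tumour HECs, and Flt4 17.8%, 58.0%, 52.6% and 43.9%. With the length of the longest transcript in place of all exons, Flt1 (30.8 TPM) came before Flt4 (27.4 TPM) in normal BECs, and the order of the receptors was the same in the other groups. The receptor sum was 147.7 ± 12.0 TPM in normal BECs and 60.6 to 83.3 in the other groups.

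Ratios within a library do not depend on its depth. Kdr exceeded Flt1 5.13-fold per length in normal BECs (5.0 to 5.29) and 2.19-fold in tumour BECs (2.09 to 2.27). The corresponding ratios were 3.06 in normal HECs (2.88 to 3.27) and 5.99 in tumour HECs (5.34 to 6.60). The balance of Kdr to the VEGFR1 gene was thus lower with tumour in BECs and higher with tumour in HECs, with no overlap between the groups of either pair. The ratio of Kdr to Flt4 was 3.87 ± 0.30 in normal BECs, 0.50 ± 0.04 in tumour BECs, 0.68 ± 0.03 in normal HECs and 1.09 ± 0.06 in tumour HECs. As log2 ratios of Flt1 to Kdr, tumour BECs differed from normal BECs by 1.23, and tumour HECs from normal HECs by -0.97. The differences for Flt4 to Kdr were 2.96 in BECs and -0.69 in HECs. Between cell types, HECs differed from BECs by 0.75 (Flt1 to Kdr) and 2.51 (Flt4 to Kdr) among the normal groups, and by -1.45 and -1.13 among the tumour groups. All 8 comparisons were without overlap and had p = 0.1 in a two-sided exact permutation test (0.1 after adjustment over the 8), which is the smallest value that 3 libraries against 3 can give.

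**Figure D2:**
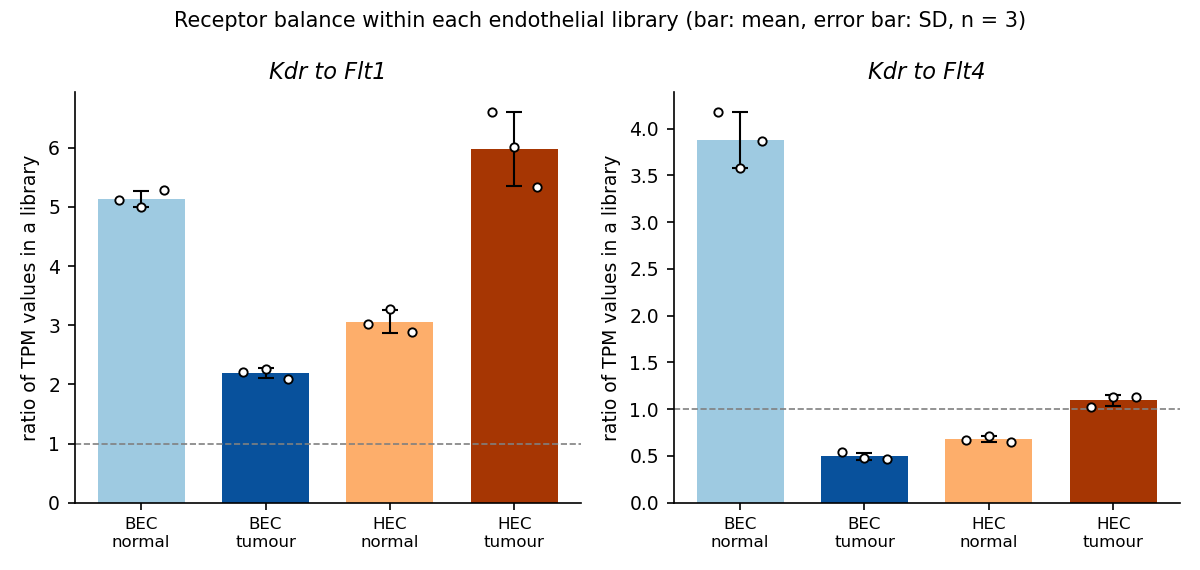
Ratio of Kdr to Flt1 and of Kdr to Flt4 in each endothelial library, from TPM values; bars are means of 3 libraries, error bars SDs, open points single libraries, and the dashed line marks equal levels. Both ratios are lower in tumour than in normal BECs and higher in tumour than in normal HECs; only tumour BECs and normal HECs have less Kdr than Flt4.

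The ligands followed a different pattern. In normal HECs, Vegfb was 5.06-fold and Pgf 3.89-fold higher than in normal BECs, whereas Vegfc was not detected beyond 8 deposited units. In BECs, tumour went with lower Vegfa, Vegfc and Pgf and with higher Vegfb.

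Vegfa was at 3407, 3503 and 3504 normalised counts in normal BECs and at 1020.3, 1017 and 1108 in tumour BECs. It was at 2966, 2682 and 2759 in normal HECs and at 2630, 2722 and 3001 in tumour HECs. Tumour BECs stood apart as the low group, and the HEC groups overlapped. Vegfa was 3.31-fold lower in tumour than in normal BECs (log2 -1.73 ± 0.08, DESeq2 adjusted p = 1.66e-109) and 2.66-fold higher in tumour HECs than in tumour BECs (log2 1.41 ± 0.08, DESeq2 adjusted p = 3.3e-72). In HECs the difference with tumour was -0.01 ± 0.08 (DESeq2 adjusted p = 0.956), and the changes in HECs and BECs differed by 1.72 ± 0.11 (DESeq2 adjusted p = 1.44e-55).

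Vegfb was at 1837, 2211 and 1966 normalised counts in normal BECs and at 5549, 5993 and 6040 in tumour BECs. Normal HECs had 9709, 10179 and 10524, and tumour HECs 7505, 7201 and 6739. The 4 groups did not overlap, and normal HECs were the highest. Vegfb was 2.93-fold higher in tumour than in normal BECs (log2 1.55 ± 0.08, DESeq2 adjusted p = 3.2e-77). In HECs it was 1.42-fold lower with tumour (log2 -0.50 ± 0.08, DESeq2 adjusted p = 5.3e-09), which is not a call. The changes differed by -2.05 ± 0.12 (DESeq2 adjusted p = 4.16e-69). Between cell types the log2 difference was 2.34 ± 0.08 among normal groups (DESeq2 adjusted p = 1.19e-176) and 0.29 ± 0.08 among tumour groups (DESeq2 adjusted p = 0.00106).

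Vegfc was at 1555, 1549 and 1709 normalised counts in normal BECs and at 122, 224 and 223 in tumour BECs. In HECs it was found in 1 of 6 libraries, normal HEC replicate 1, with 8 deposited units, about 2 steps. Taking 3 steps a library (11.4 deposited units) as the limit of detection, Vegfc was at least 141-fold lower in normal HECs than in normal BECs and at least 16.7-fold lower in tumour HECs than in tumour BECs. In tumour BECs it was 8.44-fold lower than in normal BECs (log2 -3.08 ± 0.33, DESeq2 adjusted p = 2.57e-19). Leaving out BEC normal replicate 1, 2 or 3 gave DESeq2 adjusted p of 0.0695, 0.0725 and 0.0805, and leaving out BEC tumour replicate 1, 2 or 3 gave 0.0817, 0.0596 and 0.0589, with log2 differences between -3.21 and -2.84. A DESeq2 fit of all 6 libraries of the BEC groups alone gave 1.99e-33. Both HEC groups were under the limit of detection, so their Vegfc levels were not compared, although the fit formally called a decrease (DESeq2 adjusted p = 0.0161) that came from the 8 units of normal HEC replicate 1 and was gone without that library (log2 0.00). Without tumour HEC replicate 1, 2 or 3 the adjusted p was 0.0506, 0.0595 and 0.0527.

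Pgf was at 2369, 2137 and 2367 normalised counts in normal BECs and at 593, 712 and 668 in tumour BECs. It was at 10817, 9736 and 6160 in normal HECs and at 7711, 5105 and 7675 in tumour HECs. All HEC libraries were above all BEC libraries, and they were widely spread (8904 ± 2437 in normal and 6830 ± 1495 in tumour HECs; SD, n = 3). Pgf was 3.89-fold higher in normal HECs than in normal BECs (log2 1.96 ± 0.21, DESeq2 adjusted p = 1.68e-20) and 10.4-fold higher in tumour HECs than in tumour BECs (log2 3.38 ± 0.21, DESeq2 adjusted p = 1.52e-57). In BECs it was 3.48-fold lower with tumour (log2 -1.80 ± 0.21, DESeq2 adjusted p = 5.3e-17). In HECs the tumour and normal groups overlapped (log2 -0.38 ± 0.21, DESeq2 adjusted p = 0.142). Without normal HEC replicate 3 that difference was -0.59 (DESeq2 adjusted p = 0.00375), still under 2-fold. The changes in HECs and BECs differed by 1.42 ± 0.29 (DESeq2 adjusted p = 6.38e-06, and 0.868 when tested against 2-fold).

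Per length, Vegfb was the most abundant ligand in every endothelial group. It averaged 46.8 ± 3.34 TPM in normal BECs, 145.7 ± 5.43 in tumour BECs, 231.9 ± 8.72 in normal HECs and 179.2 ± 8.02 in tumour HECs, where it ranked between place 662 (normal HECs) and place 3379 (normal BECs) of 55141 genes. Its share of the 4 ligands was 35.6% in normal BECs, where Vegfa held 23.1%, Pgf 22.6% and Vegfc 18.7%, and 87.0% in tumour BECs, where Vegfa held 5.83%, Pgf 5.39% and Vegfc 1.83%. In HECs Vegfb and Pgf together carried most ligand transcripts, with 63.2% and 30.3% in normal HECs and 59.9% and 31.3% in tumour HECs. With the longest transcript, Pgf came before Vegfa in normal BECs (32.9 and 30.0 TPM) and in tumour BECs (9.97 and 9.58 TPM), and the ligand order was otherwise the same. The summed ligand TPM was 131.5 in normal BECs, 167.6 in tumour BECs, 368.6 in normal HECs and 300.0 in tumour HECs.

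**Figure D3:**
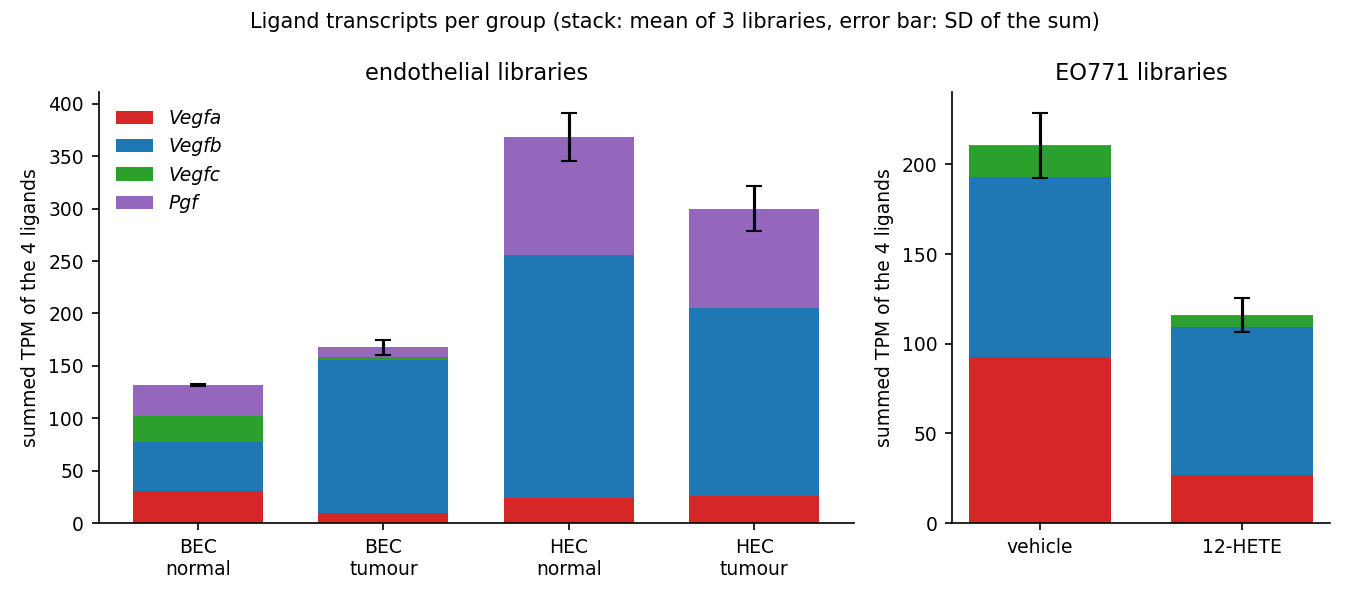
Summed TPM of the 4 ligands in the endothelial groups (left) and in EO771 cells (right); each stack gives group means of 3 libraries and the error bar the SD of the sum. Vegfb fills most of the stack in tumour BECs and, with Pgf, in HECs, and Vegfa shrinks from 92.5 to 26.8 TPM in EO771 cells with 12-HETE. The tables were normalised separately, and the paper's methods describe different library kits and sequencers for them.

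The summed fibroblast and pericyte list moved with tumour in BECs from 830-840 to 83.5-115 CPM, and the myeloid list from 108-128 to 1460-1960 CPM. Within the first list, Col1a1 went from 117-130 to 2.68-11.1 CPM. Dcn (2.14-3.55 and 3.08-10.3 CPM) and Des (3.81-7.16 and 6.09-7.65 CPM) did not fall, and their groups overlapped. The lymphatic list went from 271-290 to 75.9-88.0 CPM, with Lyve1 from 194-219 to 46.9-54.8 CPM. Smooth muscle actin (Acta2) went from 621-622 to 34.8-59.9 CPM and lysozyme (Lyz2) from 2.74-6.38 to 567-919 CPM. The summed lists, Lyve1, Acta2 and Lyz2 thus moved in the same libraries as all 6 called members of that comparison. Their part in the result was not tested. Between normal HECs and normal BECs, the fibroblast and pericyte list (33.3-34.3 against 830-840 CPM), the myeloid list (483-509 against 108-128 CPM) and Pdpn also differed. The myeloid difference lay in Cd68 (477-503 against 101-117 CPM), whereas Csf1r went the other way (0.164-0.505 against 2.58-4.41 CPM). Des also went against its list (8.0-8.53 against 3.81-7.16 CPM). The part of these markers in the differences of Kdr, Flt1, Vegfb, Vegfc and Pgf was not tested. Between tumour HECs and tumour BECs, the fibroblast and pericyte list was at 18.4-20.2 against 83.5-115 CPM and the myeloid list at 355-374 against 1460-1960 CPM. The lymphatic list was at 234-244 against 75.9-88.0 CPM. Its higher sum lay in Lyve1 (232-242 against 46.9-54.8 CPM), whereas Pdpn (0.727-1.85 against 24.7-32.8 CPM) and Tbx1 (0 against 2.21-3.35 CPM) were lower. Pdgfra also went against its list (7.36-8.26 against 4.95-6.91 CPM). The part of these markers in the differences of Vegfa, Vegfc and Pgf was not tested.

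By comparison, the numbers of members past the threshold (DESeq2 adjusted p under 0.05 and more than 2-fold) were as follows. Between normal HECs and normal BECs, 2 of 7 members were higher and 3 lower, against 17.1% and 15.1% of all 18511 genes tested. Between tumour HECs and tumour BECs, 2 were higher and 1 lower, against 11.2% and 10.7%. With tumour in BECs, 1 was higher and 5 lower, against 12.4% and 10.8%, whereas in HECs none was higher and 1 lower, against 4.58% and 3.21%, the 1 being Vegfc at the limit of detection. In the test of the difference between these changes, 3 members were higher and 1 lower, against 11.2% and 12.1%. The comparisons share groups with each other, so their counts are not independent. The shares of decreases in BECs and the background are set side by side without a test.

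**Figure D4:**
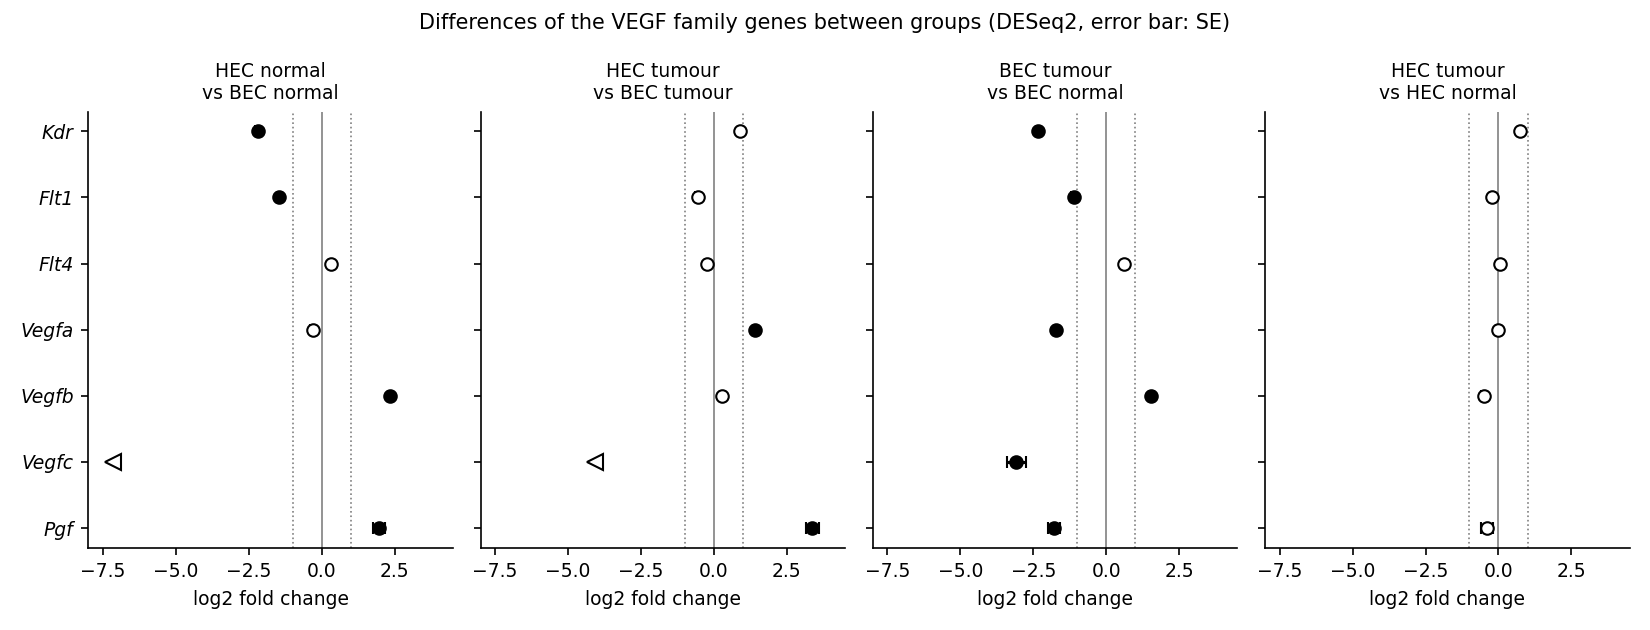
Log2 fold change (x axis) of each member in the 4 endothelial comparisons; filled points passed the threshold, open points did not, error bars are SEs, dotted lines mark 2-fold, and triangles mark bounds for Vegfc, which was under the limit of detection in HECs. Among receptors only Kdr and Flt1 reach filled points, always below 0. The last panel has no point for Vegfc.

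Ligand transcripts of tumour cells were read from the libraries of cultured EO771 cells. Vegfa was the member that differed most with 12-HETE, at 2368, 2076 and 1834 normalised counts with vehicle and at 732, 592 and 533 with 12-HETE. All treated libraries lay below all vehicle libraries. Vegfa fell 3.38-fold (log2 -1.76 ± 0.16, DESeq2 adjusted p = 4.63e-28). Vegfc was at 206, 261 and 219 normalised counts with vehicle and at 93.5, 75.9 and 78.7 with 12-HETE, and fell 2.77-fold (log2 -1.47 ± 0.20, DESeq2 adjusted p = 1.53e-12, and 0.393 when tested against 2-fold). Vegfb was at 963, 822 and 761 with vehicle and at 751, 711 and 689 with 12-HETE. The groups did not overlap, but the difference of -0.24 ± 0.13 did not pass the test (DESeq2 adjusted p = 0.1). Pgf counts were 3, 12 and 2 with vehicle and 1, 2 and 4 with 12-HETE, under the mean of 10 needed for testing.

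Among receptors, Flt4 was the main one in EO771 cells, at 21.5 ± 1.85 TPM with vehicle against 3.59 ± 1.36 for Flt1. Flt4 was at 1010.4, 865 and 925 normalised counts with vehicle and at 690.1, 645 and 702 with 12-HETE, a difference of -0.46 ± 0.11 (DESeq2 adjusted p = 0.000173), under 2-fold. Flt1 was at 204, 204 and 352 with vehicle and at 136, 157 and 155 with 12-HETE. Its difference was -0.76 ± 0.25 (DESeq2 adjusted p = 0.00599), and -0.45 (DESeq2 adjusted p = 0.0442) without vehicle replicate 3, the highest library. Kdr had 2, 4 and 7 counts with vehicle and 0, 1 and 0 with 12-HETE and was not tested. Of 5 members tested, none was higher and 2 were lower, against 2.38% and 7.79% of 11602 genes. Epithelial and tumour cell markers moved as well, from 3050-3980 CPM with vehicle to 2040-2090 with 12-HETE (all 5 detected), and the fibroblast and pericyte list, led by Dcn, from 391-615 to 998-1040 CPM. Their part in the result was not tested.

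**Figure D5:**
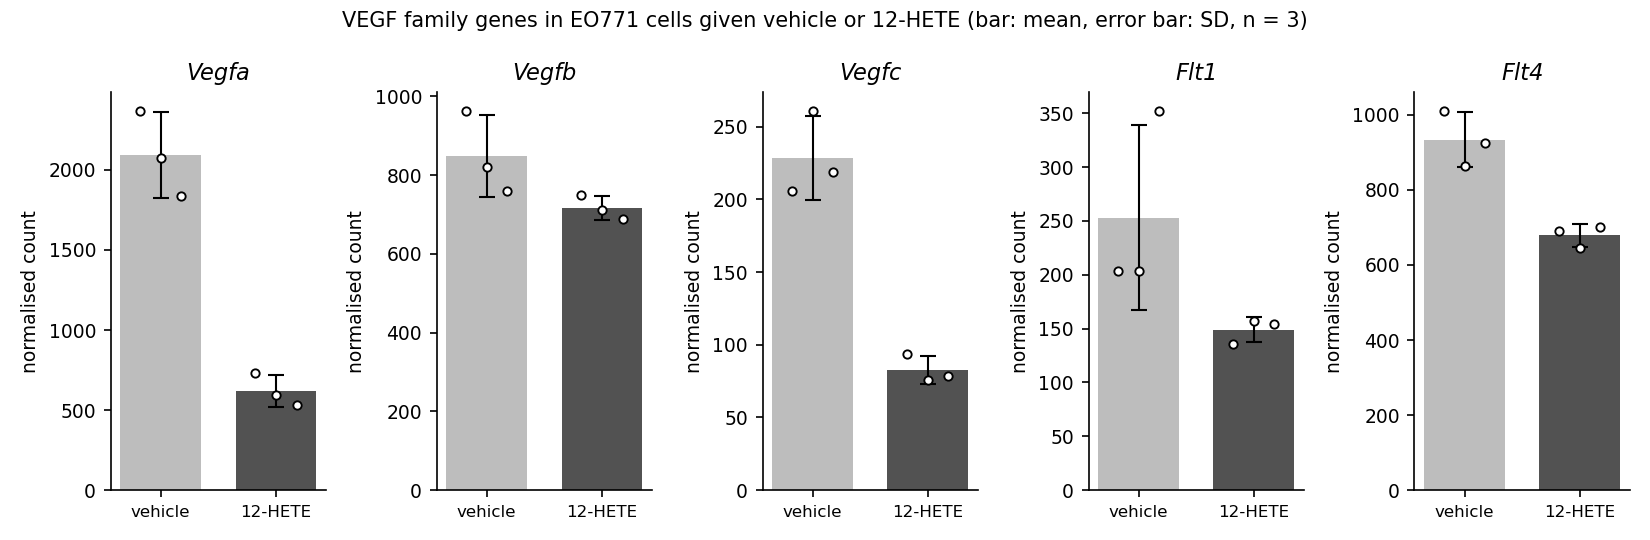
Normalised counts (linear axes from 0) of the 5 members tested in EO771 cells given vehicle or 12-HETE; bars are means of 3 libraries, error bars SDs and open points single libraries. Vegfa and Vegfc pass the threshold, the other 3 do not; Kdr and Pgf are left out for low counts.

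On the TPM scale, Vegfb (100.2 ± 10.3) and Vegfa (92.5 ± 9.60) were about equal in vehicle EO771 cells, whereas with 12-HETE Vegfb (82.7 ± 4.22) exceeded Vegfa (26.8 ± 4.62). Vegfa made up 43.9% of ligand TPM with vehicle and 23.0% with 12-HETE, Vegfb 47.5% and 71.5%, Vegfc 8.48% and 5.39%, and Pgf 0.17% and 0.13%. The ligand sum was 210.7 with vehicle and 115.9 with 12-HETE. Vegfa was at 9.76 ± 0.29 TPM in tumour BECs and at 24.0 to 26.2 in HECs, and Vegfc at 17.7 ± 2.01 TPM in vehicle EO771 cells against 3.09 ± 0.93 in tumour BECs. These levels come from separately normalised tables and were not tested against each other. TPM was scaled over 55141 genes in the endothelial table and over 22277 in the EO771 table. The paper's methods also describe another library kit and sequencer for the EO771 RNA than for its general RNA-seq. Such differences cannot be told apart from differences in level.

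Co-receptors and receptor partners (11 genes) were next. Nrp1, which encodes the neuropilin that presents VEGF-A to VEGFR2, was at 2838, 2296 and 2680 normalised counts in normal BECs, at 1792, 1863 and 1248 in tumour BECs, at 199.8, 172 and 280.0 in normal HECs and at 211, 229.9 and 260.1 in tumour HECs. It was lower in HECs by 3.58 ± 0.21 on the log2 scale among normal groups (DESeq2 adjusted p = 4.32e-64) and by 2.81 ± 0.21 among tumour groups (DESeq2 adjusted p = 3.08e-39). Nrp2, the partner of VEGFR3, differed in another way: it averaged 11918 in normal BECs, 17479 in tumour BECs, 14159 in normal HECs and 8787 in tumour HECs. Its changes with tumour differed by -1.24 ± 0.10 (DESeq2 adjusted p = 3.5e-32, and 0.161 when tested against 2-fold). Vegfd, the second ligand of VEGFR3, averaged 782 normalised counts in normal BECs, 281 in tumour BECs, 164 in normal HECs and 44.1 in tumour HECs. It was lower with tumour in BECs (log2 -1.48 ± 0.28, DESeq2 adjusted p = 3.77e-07) and in HECs (log2 -1.91 ± 0.31, DESeq2 adjusted p = 7.35e-09). Tested against 2-fold, neither Vegfd difference was called (DESeq2 adjusted p = 0.524 in BECs and 0.248 in HECs). Gpc1, a heparan sulfate proteoglycan, averaged 5607 normalised counts in normal BECs and 5.26 in normal HECs, at least 493-fold lower. In all, 7 of the 11 were lower and none higher in normal HECs than in normal BECs (median -1.05; 15.1% and 17.1% of all genes). Among tumour groups 3 were lower (median -0.47; 10.7% of all genes), with tumour in BECs 4 were lower (median -0.62; 10.8%), and with tumour in HECs 1, Vegfd, was lower (median 0.11; 3.21%). All-gene medians lay between -0.002 and 0.02 in every comparison. In EO771 cells Nrp1 rose with 12-HETE (log2 1.42 ± 0.22, DESeq2 adjusted p = 2.78e-09), from 51.1 to 137 normalised counts, and Itgb3, an integrin subunit, was lower (log2 -1.11 ± 0.40, DESeq2 adjusted p = 0.0139), which was over 0.05 with the replicate block (0.111) and without any of 5 of the 6 libraries (0.0507 to 0.101). Neither Nrp1 nor Itgb3 was called when tested against 2-fold.

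Of 34 genes of the signalling chain below the receptors, 3 were higher and 5 lower in normal HECs than in normal BECs (median -0.04; 17.1% and 15.1% of all genes). The count of 3 was 5 with edgeR, with the replicate block and without normal BEC replicate 1 or 2, and 6 with TMM factors. Among tumour groups 3 were higher and 3 lower (median 0.22; 11.2% and 10.7% of all genes), with tumour in BECs 2 and 3 (median -0.24; 12.4% and 10.8%) and with tumour in HECs none (median -0.04; 4.58% and 3.21%). In that last comparison 16 of the 34 had an unadjusted DESeq2 p under 0.05, all with differences under 2-fold, and edgeR also called 0. The share of all genes at that unadjusted cut is not given here, so the 16 are not read as a shift of the list. Spry2 and Spry4, feedback inhibitors of receptor tyrosine kinase signalling, were lower with tumour in BECs by 1.63 ± 0.11 and 1.94 ± 0.09 on the log2 scale (DESeq2 adjusted p = 3.19e-53 and 7.89e-99). Their changes in HECs and BECs differed by 2.20 ± 0.15 and 2.28 ± 0.13 (DESeq2 adjusted p = 4.48e-47 and 3.52e-66). Hspb1, a small heat shock protein phosphorylated downstream of VEGFR2, was at 7377 normalised counts in normal BECs and 52651 in normal HECs (log2 2.84 ± 0.10, DESeq2 adjusted p = 3.77e-168). In EO771 cells 1 of 29 was higher, against 2.38% of all genes. It was the kinase gene Yes1 (log2 1.28 ± 0.21, DESeq2 adjusted p = 9.66e-09), which was not called when tested against 2-fold.

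Of 22 transcripts known to be induced by VEGF in endothelium, 2 were higher and 9 lower with tumour in BECs (median -0.85; 12.4% and 10.8% of all genes). In HECs 2 were higher and 2 lower (median 0.22; 4.58% and 3.21% of all genes), and 1 was higher without normal HEC replicate 2 or tumour HEC replicate 3, where the early response gene Egr3 was not called (DESeq2 adjusted p = 0.0665 and 0.109). The test of the difference between these changes called 14 higher and 4 lower (median 1.46; 11.2% and 12.1% of all genes). Dll4, the Notch ligand of tip cells, averaged 1129 normalised counts in normal BECs and 53.0 in tumour BECs (log2 -4.41 ± 0.24, DESeq2 adjusted p = 2.41e-73), and its changes differed by 4.17 ± 0.33 (DESeq2 adjusted p = 1.09e-34). Angpt2, a ligand of the receptor Tie2, went the other way in BECs, from 627 to 1897 (log2 1.59 ± 0.08, DESeq2 adjusted p = 3.74e-79). Rcan1, an inhibitor of calcineurin, was also higher with tumour in BECs (log2 1.47 ± 0.06, DESeq2 adjusted p = 1.55e-151). In HECs Ptgs2, a cyclooxygenase, was higher with tumour (log2 1.28 ± 0.15, DESeq2 adjusted p = 1.11e-16), and Stc1 was lower (log2 -1.35 ± 0.17, DESeq2 adjusted p = 1.71e-13). Tested against 2-fold, none of the list was called with tumour in HECs. Esm1, a proteoglycan of sprouting endothelium, was at 5238 normalised counts in normal HECs against 460.4 in normal BECs (log2 3.51 ± 0.18, DESeq2 adjusted p = 8.52e-86) and at 8503 against 266 among tumour groups (log2 5.0 ± 0.18, DESeq2 adjusted p = 2.75e-169). Among tumour groups 10 of the 22 were higher in HECs and 1 lower (median 0.82; 11.2% and 10.7% of all genes), the 1 being 2 without tumour HEC replicate 1. Among normal groups 6 were higher and 7 lower (median -0.08; 17.1% and 15.1%). In EO771 cells none of 16 was higher and 10 were lower (median -1.33; 2.38% and 7.79% of all genes), among them Egr2, an early response transcription factor (log2 -3.11 ± 0.37, DESeq2 adjusted p = 7.2e-16). The list was drawn for endothelium. Kdr was at 7 counts or less in every EO771 library, and the part of VEGF in these decreases was not tested.

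Of 14 genes for ligand processing and release, 12 were tested in the endothelial libraries. In normal HECs 8 were lower than in normal BECs and none higher (median -1.29; 15.1% and 17.1% of all genes), and with tumour in BECs 6 were lower and none higher (median -1.07; 10.8% and 12.4%). Mmp2, a matrix metalloproteinase, averaged 12268 normalised counts in normal BECs, 1295 in tumour BECs, 184 in normal HECs and 160.1 in tumour HECs. It was lower with tumour in BECs by 3.24 ± 0.19 on the log2 scale (DESeq2 adjusted p = 3.95e-64). The summed fibroblast and pericyte list was lower there as well, though not its members Dcn and Des. Among tumour groups 2 were higher and 5 lower in HECs (median -0.71; 11.2% and 10.7% of all genes), and Plat, tissue plasminogen activator, was 2.21 ± 0.08 higher on the log2 scale (DESeq2 adjusted p = 8.04e-162). With tumour in HECs 2 were higher and 2 lower (median -0.05; 4.58% and 3.21% of all genes). The higher genes were Plat (log2 1.05 ± 0.08, DESeq2 adjusted p = 1.8e-36), which was just under 2-fold without normal HEC replicate 2 (log2 1.00), and the heparanase gene Hpse, which was under the limit of detection in both HEC groups. Of the lower genes, Mmp9 was not called with edgeR (adjusted p = 0.0662), with the replicate block (0.0594) or without any of 5 of the 6 HEC libraries (0.086 to 0.219). In EO771 cells 1 of 7 was lower, against 7.79% of all genes, with a list median of -0.43. It was Adamts14 (log2 -1.46 ± 0.16, DESeq2 adjusted p = 1.05e-18), which was not called when tested against 2-fold (DESeq2 adjusted p = 0.0965).

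Among 18 hypoxia regulators and hypoxia-induced genes, 6 were higher and 1 lower in normal HECs than in normal BECs (median 0.50; 17.1% and 15.1% of all genes), and 7 and 1 among tumour groups (median 0.74; 11.2% and 10.7%). Ndrg1, a hypoxia-induced gene, averaged 38053 normalised counts in normal HECs against 2192 in normal BECs (log2 4.12 ± 0.08, DESeq2 adjusted p too small to be represented). With tumour in HECs it was the only one called, as lower (log2 -1.43 ± 0.08, DESeq2 adjusted p = 8.35e-76), against 3.21% of all genes. The list median there was -0.03, and 2 were called without normal HEC replicate 2 or 3. Epas1, which encodes HIF-2α, was lower in normal HECs (log2 -2.71 ± 0.09, DESeq2 adjusted p = 1.18e-180). With tumour in BECs 3 were higher and 5 lower (median -0.15; 12.4% and 10.8% of all genes), with carbonic anhydrase 9 (Car9) higher by 2.34 ± 0.18 (DESeq2 adjusted p = 4.96e-37) and Epas1 lower by 1.31 ± 0.09 (DESeq2 adjusted p = 9.3e-45). In EO771 cells 3 of 16 were lower and none higher (median -0.17; 7.79% and 2.38% of all genes). They included Ndrg1 (log2 -2.36 ± 0.19, DESeq2 adjusted p = 4.04e-33) and Bnip3, a mitophagy receptor (log2 -2.58 ± 0.27, DESeq2 adjusted p = 1.71e-19).

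The related platelet-derived growth factor ligands and receptors (8 genes) were called 2 higher and 2 lower in normal HECs against normal BECs (median -0.29; 17.1% and 15.1% of all genes). Among tumour groups 1 was higher and 2 lower (median -0.33; 11.2% and 10.7% of all genes), and 2 were higher without tumour HEC replicate 2 or 3. With tumour in BECs 2 were higher and 2 lower (median -0.69; 12.4% and 10.8%), and with tumour in HECs 2 were lower (median -0.59; 3.21%). Pdgfrb, the pericyte receptor of this family, was just past 2-fold in both cell types. It was under 2-fold without tumour BEC replicate 1 in BECs (log2 -0.99), and without normal HEC replicate 2 or 3 or tumour HEC replicate 2 or 3 in HECs (log2 -0.98 to -0.93), which leaves 1 lower in each. Pdgfb, which recruits pericytes, was higher in tumour HECs than in tumour BECs (log2 2.05 ± 0.09, DESeq2 adjusted p = 3.37e-103) and fell in EO771 cells with 12-HETE (log2 -1.59 ± 0.11, DESeq2 adjusted p = 1.16e-48). Csf1r, a macrophage receptor that also stands on the myeloid marker list, was higher in tumour than in normal BECs (log2 3.77 ± 0.36, DESeq2 adjusted p = 7.29e-25).

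The genes most like each member in pattern were sought among 13290 genes, by Pearson's r of log2 normalised counts over the 12 endothelial libraries, which fall into 4 groups and share library depth and sorting. Kdr was nearest to Samd5 (r = 0.996), Adamts1 (0.994) and Nsun2 (0.993), and Flt1 to Cdc42 (0.995), Slc22a23 (0.993) and Lman1 (0.99). Flt4 was nearest to Arhgap25 (0.988), Lcn2 (0.979) and Ubqln2 (0.976). Vegfa was nearest to Nol4l and Oaf (0.994 each) and Nptx1 (0.989), Vegfb to Depp1, Hoxd10 and Casp4 (0.995 each), Vegfc to Tmem121 (0.998), Pxylp1 (0.996) and Serf1 (0.994), and Pgf to Mgst2 (0.986), Nr1d1 (0.982) and Chic2 (0.979). Adamts1, an extracellular protease that also stands on the list of VEGF-induced transcripts, followed Kdr with 23735 normalised counts in normal BECs, 5652 in tumour BECs, 5499 in normal HECs and 9812 in tumour HECs.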

How the data were processed

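RNA was sequenced in 18 libraries, 12 of sorted endothelial cells and 6 of EO771 cells. Reads were mapped by the authors to GRCm38 with STAR and assigned to genes with featureCounts. In the endothelial table the deposited values are whole numbers in an expected count unit, since they move in steps of about 3.79 (3.75 to 3.81 per library); what made the steps is not given in the sources used here, nor is the strand setting of the counting. The deposited EO771 values are counts of reads per gene symbol. Comparisons made by the authors were not used.

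Groups came from the labels. Genes with a mean of at least 10 were tested with DESeq2 1.42.0 (Wald test, group only, two-sided, Benjamini-Hochberg over all genes of a table) in R 4.3.3. The 12 endothelial libraries were put in 1 fit and the 6 EO771 libraries in another. A gene was called at an adjusted p under 0.05 and an absolute log2 fold change over 1. The tool, filter and thresholds are those of the authors' methods, and the layout of the fits was chosen here. Normalised counts are deposited values divided by DESeq2 size factors, and TPM used the merged exon length of GENCODE vM21. Receptor ratios were compared with a two-sided exact permutation test. Limits of detection were 3 steps or 3 counts a library and cover counting error only.

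The members and lists were chosen with earlier results of these data known. Text names all members, for each list and comparison the 2 called genes with the largest positive and negative changes or some of them, and the 3 nearest genes per member (mean normalised count of at least 100, pseudocount 1). Of the endothelial identifiers, 260 had no match in GENCODE, and 295 EO771 symbols; 24 EO771 symbols were dates.

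Equal replicate numbers were checked as pairs. In EO771 cells deviations from group means correlated at 0.111 to 0.328 for equal numbers and at -0.229 to 0.054 for others. This correlation, not the labels, is the source of a pairing there. The EO771 values given are nevertheless from the fit by group only, without pairs, and the replicate block was an alternative. In endothelial cells no pairing was found. Scripts were tested on simulated data. Alternatives were edgeR 4.0.16, TMM factors, no filter, a filter of 100, the adjusted p alone, a test against a log2 fold change of 1, the replicate block, division by the step, fits of 2 groups, leaving out each library, pseudocounts of 1 and 10 for ratios, and the longest transcript for TPM. Promoter windows and start sites came from RefSeq.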

Additional observations from a re-analysis of the deposited data

Results flagged for a closer look

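These differences between groups were marked because the change with tumour in HECs differed from that in BECs in a test of the difference itself (DESeq2 interaction term, adjusted p under 0.05 and more than 2-fold); all values are log2 differences, HECs minus BECs. Among the members these were Kdr (3.09), Vegfa (1.72), Vegfb (-2.05) and Pgf (1.42). Normal and tumour BECs also differed in tissue and digestion, which the test cannot tell apart from tumour. Flt1 and Flt4 differed by less than 2-fold, and Vegfc (-0.67 ± 1.37, DESeq2 adjusted p = 0.725) could not be judged because both HEC groups were under the limit of detection.

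The shares of all genes called in this test were 11.2% higher and 12.1% lower. Of the 11 co-receptors and partners 5 were called higher and 1 lower, and with edgeR 3 and 1. Ptprb, a phosphatase that acts on Tie2 and VEGFR2, had 2.13, Gpc1 1.78 and Nrp2 -1.24. The value of Gpc1 rests on HEC groups under the limit of detection, and leaving out normal HEC replicate 1 or 2 or tumour HEC replicate 1 or 2 gave 1.62, 1.62, 1.31 and 1.43 with DESeq2 adjusted p of 0.0542, 0.0538, 0.216 and 0.17. Of the 34 signalling genes 4 were higher and 2 lower, with Spry4 at 2.28, Spry2 at 2.20, the protein kinase C gene Prkcb at -4.20 and Hspb1 at -1.61. Prkcb averaged under the limit of detection in normal BECs.

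Of the 22 VEGF-induced transcripts 14 were higher and 4 lower, and with edgeR 12 and 4. The largest values were those of the potassium channel subunit Kcne3 (4.61, with tumour BECs under the limit of detection) and of Dll4 (4.17), and the lowest those of the nuclear receptor Nr4a3 (-2.36) and of Angpt2 (-1.92). Of the 12 ligand processing genes tested 7 were higher and none lower, with Hpse (heparanase) at 5.79 and Mmp2 at 3.04; Hpse was under the limit of detection in both HEC groups. Of the 18 genes of the hypoxia list 4 were higher and 3 lower, with Epas1 at 1.85, the prolyl hydroxylase gene Egln3 at 1.56, Ndrg1 at -2.67 and Car9 at -2.37. Of the 8 PDGF relatives 1 was higher, Pdgfb at 1.65, and 2 lower, the stem cell factor receptor Kit at -5.48 and Csf1r at -4.39. Myeloid markers moved with tumour in BECs from 108-128 to 1460-1960 CPM, among them Csf1r from 2.58-4.41 to 27.7-59.5 CPM, and their part in these values was not tested. In HECs their sum was 483-509 CPM in the normal and 355-374 CPM in the tumour group, nearly all of it Cd68, and Csf1r was at 0.505 CPM or less.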

How the results depend on the processing

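Member counts depended mostly on the 2-fold limit. Shares of all genes under other limits are not given here. The counts below are therefore not read as results about the members. By the adjusted p alone, 4 members were higher and 3 lower between tumour HECs and tumour BECs, 1 higher and 2 lower with tumour in HECs, 2 higher with tumour in BECs, 2 lower in the difference of these changes, and 4 lower in EO771 cells. Tested against a log2 fold change of 1, 1 member was lower in EO771 cells (Vegfc was not called), none with tumour in HECs, 4 with tumour in BECs (Flt1 was not called), and 2 were higher in the difference of changes (Pgf was not called). Vegfc, lower with tumour in HECs, was also not called after division by the step, with edgeR, in the fit of 2 groups or with the replicate block, so the count was 0 under each, and 0 to 1 without 1 library. The cause was not tested, except that both groups held at most 8 deposited units.

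Directions turned in values that had not passed the test or were at the limit of detection. Vegfa with tumour in HECs was 0.0205 with the filter of 100 and ranged from -0.0676 to 0.0314 without 1 library. For Vegfc, HEC tumour against HEC normal, it ranged from -4.36 to 0.00 without 1 library, and in the difference of changes Vegfc was 1.33 after division by the step and -1.28 to 3.20 without 1 library. Receptor ratios kept their direction with pseudocounts of 1 and 10 and without each library.

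Equal replicate numbers did not pair the endothelial libraries (r -0.028 to 0.126 over 18 pairs). The block took the Vegfc decrease in tumour BECs from an adjusted p of 2.57e-19 to 0.0601 and changed no other member call but that of Vegfc in HECs. With edgeR no other member call differed. Precision is limited by 3 libraries a group, and Kdr and Pgf could not be tested in EO771 cells at this depth.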
